A study of Homo sapiens with 4 samples.

Results

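The genes described here are 38 members of the actin cytoskeleton programme governed by serum response factor (SRF) and its coactivators, the myocardin-related transcription factors MRTFA and MRTFB. They were chosen as a named list of actins, tropomyosins, calponins, myosins, crosslinking and LIM-domain proteins and focal adhesion proteins, together with SRF, MRTFA and MRTFB themselves. Of the 38, 33 had a probe set annotated with their symbol and no other, out of 19775 genes for which this held. Each gene was read at its brightest such probe set, and 30 members passed the filter on dim genes, among 11865 genes tested. CNN1, MYL9 and FILIP1L lay below that filter. ACTG1 was represented only by probe sets it shares with ACTB, and TPM3, FLNA, FLNC and FHL1 were not analysed here.

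RNA came from HEK293, an adherent line derived from human embryonic kidney cells transformed with adenovirus DNA. LPA-treated cells received lysophosphatidic acid (LPA) at 1 µM for 2 h after a night without serum, and were measured on 2 arrays. Untreated cells, whose titles carry the unexplained letters Vc and whose treatment is given as none, were measured on 2 arrays. Both groups were grown in medium with 10% fetal bovine serum before the treatment, and the labels give the serum-free night without naming a group. What the untreated cells received in place of LPA is not stated, nor whether replicates 1 and 2 were separate cultures. The p-values below therefore reflect array-to-array spread alone, and that spread may be technical. All samples are of 1 transformed line, and a bulk array cannot tell fewer cells of a kind from less RNA per cell.

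LPA is a serum phospholipid that activates G protein-coupled receptors, and signals from these receptors can drive actin polymerisation. Monomeric actin holds MRTFs in the cytoplasm, so that polymerisation releases them to the nucleus, where they join SRF on a DNA element called the CArG box. Many targets of this pair encode the cytoskeleton itself, including actins, vinculin, calponins and SRF, which binds its own promoter.

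The CArG box (both strands are covered, since the motif reads alike on each) was searched in RefSeq promoter windows of 300 bases, from 250 before to 50 after each gene's start, in the build GRCh38.p14. It was found in 10 of the 35 members with a window (28.6%), against 438 of 27305 genes with a window (1.60%). The members were listed as genes of the SRF programme, so a higher share was built into the list and is no result. The 35 members also had 75 windows and the 27305 genes had 35116, so a member had more windows on average. Of all the windows, 1.29% held the box. A match describes the letters of the window and is not a measured binding site, and no match says nothing of sites elsewhere. The stretches around the match are shown because this element is what the coactivators and SRF act through, and capitals mark the CArG box. The first 6 belong to members that were tested on the arrays, with the chromosomes, positions and strands of the stretches given after them.
SRF: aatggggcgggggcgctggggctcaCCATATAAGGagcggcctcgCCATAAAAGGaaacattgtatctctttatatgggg
ACTN1: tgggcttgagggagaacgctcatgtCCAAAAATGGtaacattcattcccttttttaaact
CNN2: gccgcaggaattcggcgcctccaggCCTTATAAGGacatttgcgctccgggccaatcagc
FHL2: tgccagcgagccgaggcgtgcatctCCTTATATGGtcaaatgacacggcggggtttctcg
TGFB1I1: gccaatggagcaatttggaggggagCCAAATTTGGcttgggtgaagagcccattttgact
TPM4: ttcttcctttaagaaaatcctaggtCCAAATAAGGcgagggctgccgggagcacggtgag
ACTG1: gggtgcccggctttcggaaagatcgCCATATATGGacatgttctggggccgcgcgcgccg
FLNA: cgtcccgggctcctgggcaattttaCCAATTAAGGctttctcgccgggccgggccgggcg
These stretches lie at chr6:43171214-43171293 (plus strand) for SRF, chr14:68977703-68977762 (minus) for ACTN1, chr19:1026494-1026553 (plus) for CNN2, chr2:105399076-105399135 (minus) for FHL2, chr16:31473129-31473188 (plus) for TGFB1I1, chr19:16067340-16067399 (plus) for TPM4, chr17:81512859-81512918 (minus) for ACTG1 and chrX:154374694-154374753 (minus) for FLNA. SRF has 2 boxes, whose first bases lie 30 and 10 bases before the start. FHL2 has a further box upstream of another of its starts, and FHL1 and FILIP1L hold the remaining matches.

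The deposited intensities had been scaled array by array, with a trimmed mean of 500.1 on each array. The brightest probe set reached 93776 and 62508 units on the LPA arrays, against 97077 and 104012 on the untreated arrays, so LPA replicate 2 had the shortest range. Of the 8 markers of the HEK293 background, 7 passed the filter, among them the intermediate filament genes VIM (-0.37 ± 0.17 on the log2 scale, LPA minus untreated) and NEFL (0.33 ± 0.20). The summed intensity of all 8 was 32963 and 29253 on the LPA arrays and 34519 and 39349 on the untreated arrays. Most of that sum was VIM alone, at 24351 and 19898 against 26882 and 30202. Of the 7 tested, 3 had a mean difference above 0 and 4 below. Of 8 muscle markers, 5 lay below the filter, including MYOCD, the muscle-restricted coactivator of SRF, and MYH11, the smooth muscle myosin. The summed intensity of the muscle markers was 436 and 579 on the LPA arrays and 769 and 644 on the untreated arrays. Fibroblast markers summed to 1206 and 1504 against 1343 and 1479, mostly from COL1A1 at 847 and 1069 against 991 and 1103. Of these markers 4 of 6 were below the filter, and 2 of 3 endothelial and blood markers were below it. Their part in the results was not tested.

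The arrays ask how transcript levels stand in HEK293 cells 2 h after LPA was added. The 30 tested cytoskeleton genes did not move in a shared direction. Values were compared as log2(intensity + 1), which slightly shrinks the differences of dim genes, whose errors were wider. No member passed limma's test (adjusted p under 0.05 over all genes tested, 0.0% of which passed). The median log2 difference, LPA minus untreated, was -0.0089 over the 30 members and 0.0092 over all genes tested. With the replicate number as a block, 0 members passed, against 0.27% of all genes, or 0.0337% with quantile normalization added. The mean was higher after LPA in 14 members (46.7%), against 51.9% of all genes, and lower in 16. In 4 members (13.3%) the LPA arrays both read higher than either untreated array, where 14.4% of all genes did so. One of the 4, TPM2, passed the filter only through its LPA arrays, and 3 remain without it. In 2 members (6.67%) they both read lower, where 12.5% did so. Neither share exceeds the background, so neither is a result about the members. The unadjusted limma p was under 0.05 for 1 member, CFL1, and for 1.74% of all genes tested. Of the 30 differences, 26 were smaller than 0.3 on the log2 scale, against 78.4% of all genes. The limma 95% interval of a member's difference had a median width of 1.12, so differences well above those observed lie inside it for most members.

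**Figure D1:**
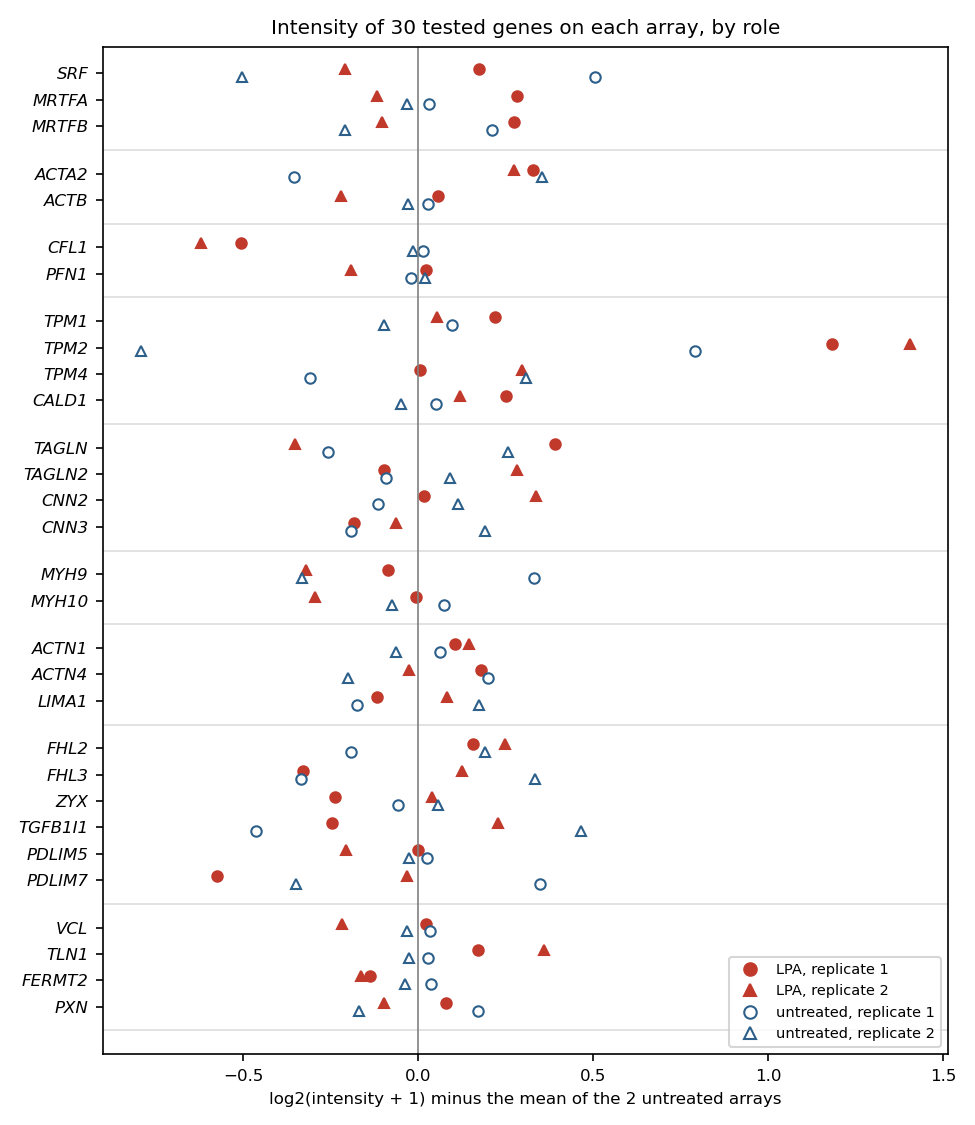
Log2(intensity + 1) of the 30 tested members on each of the 4 arrays, minus the mean of the 2 untreated arrays of that gene; filled red symbols are LPA, open blue symbols untreated, circles replicate 1 and triangles replicate 2, and lines separate roles. CFL1 lies to the left on both LPA arrays, TPM2 spreads widest on the untreated arrays, and the groups overlap for 24 of 30 members.

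The gap between the 2 untreated arrays was larger than the difference between the groups in 20 of 30 members (66.7%), as in 67.4% of all genes tested. The median size of that gap was 0.29 on the log2 scale for the members and 0.26 for all genes tested. The median size of the LPA difference was 0.11 for the members and 0.15 for all genes tested. The gap compares single arrays and the LPA difference compares means of 2 arrays, so equal noise alone would make the gap larger on average.

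SRF binds the CArG box, and SRF is itself a target. Its probe set read 565 and 434 on LPA replicates 1 and 2, against 711 and 353 on untreated replicates 1 and 2. The LPA values lay between the untreated ones, so the groups overlapped, and the log2 difference was -0.017 ± 0.35 (SE, limma, 2 arrays per group, adjusted p = 0.9999), with a 95% interval of -0.81 to 0.78. Within replicate number 1 SRF was lower by 0.33 after LPA, and within number 2 it was higher by 0.30.

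MRTFA, the coactivator held by monomeric actin, read 236 and 179 after LPA, against 198 and 190 in untreated cells. MRTFB, its relative, read 1328 and 1024 after LPA, against 1272 and 950 in untreated cells. For MRTFB the replicate number separated the arrays more than LPA did: both number 1 arrays read above both number 2 arrays. The log2 differences were 0.082 ± 0.33 for MRTFA and 0.085 ± 0.23 for MRTFB. All 3 MRTFA probe sets above the filter were higher on average, from 0.039 to 0.27, while the second MRTFB probe set differed by -0.35. Averaging all MRTFB probe sets, dim ones included, gave 0.80.

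Among the actins, the smooth muscle isoform ACTA2, an established SRF target, read 379 and 365 after LPA, against 236 and 386 in untreated cells. The low value is untreated replicate 1, and the other 3 arrays were close together. The log2 difference of 0.30 ± 0.32 (95% interval -0.42 to 1.02) was 0.68 within number 1 and -0.078 within number 2, and it became -0.051 without untreated replicate 1 and -0.25 with all probe sets averaged, the others being below the filter.

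ACTB, cytoplasmic beta-actin, read 24579 and 20288 after LPA, against 24106 and 23172 in untreated cells, at the array's control probe set for the 3′ end of the message. LPA replicate 2 was the low array, and the other 3 lay within a narrow range. The control probe set for the 5′ end read 1813 and 1082 after LPA, against 1804 and 1836 in untreated cells, so the same array was low there by more. Its difference within number 2 was -0.76, where the 3′ end gave -0.19 and the middle -0.24. The ratio of 3′ to 5′ intensity, which depends on RNA integrity and labelling, was 13.6 and 18.8 on the LPA arrays and 13.4 and 12.6 on the untreated arrays. For the control probe sets of GAPDH this ratio was 1.35 and 1.38 on the LPA arrays and 1.25 and 1.22 on the untreated arrays. Both LPA arrays thus had higher 3′ to 5′ ratios than either untreated array, though for ACTB LPA replicate 1 was only slightly higher. The ACTB ratio of 3′ to middle intensity was 2.93 and 3.09 on the LPA arrays and 2.99 and 2.99 on the untreated arrays. There LPA replicate 1 was the lowest array. The part of these ratios in the differences was not tested.

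ACTG1, gamma-actin, shares 9 probe sets with ACTB, which cannot be divided between the 2 genes. Within number 1, 8 of the 9 were higher after LPA, with differences from -0.015 to 0.19. Within number 2 all 9 were lower, from -0.57 to -0.43. The 6 ACTB probe sets above the filter had mean differences from -0.38 to -0.082. Under quantile normalization the brightest turned to 0.048.

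**Figure D2:**
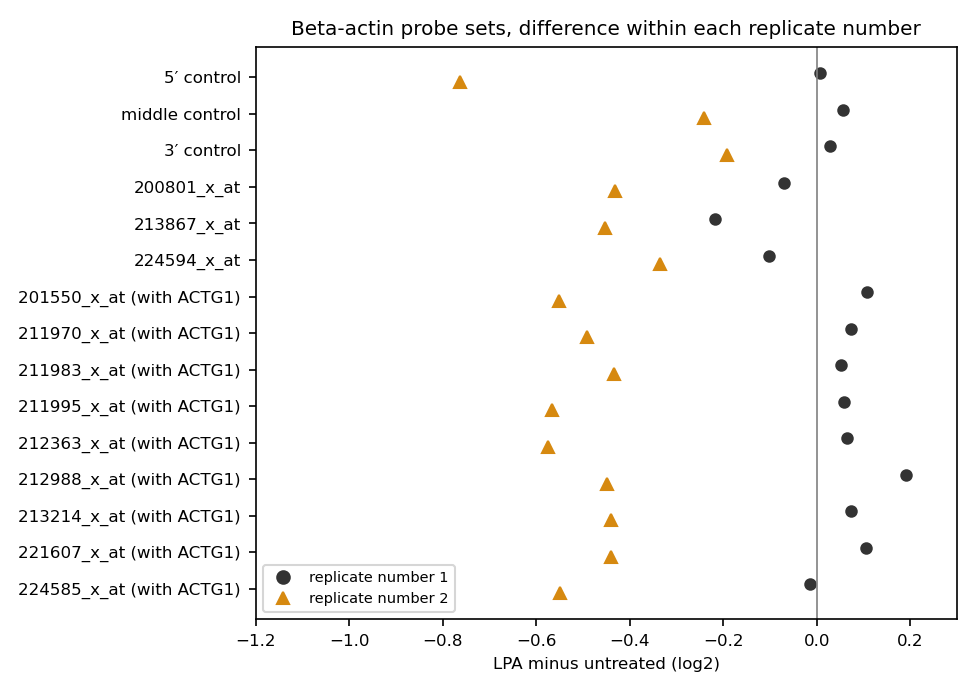
LPA minus untreated (log2) for the probe sets of beta-actin, within replicate number 1 (circles) and number 2 (triangles); the first 3 rows are control probe sets along the message and the last 9 are shared with ACTG1. Number 2 is below 0 in every row and reaches -0.76 at the 5′ end, while number 1 stays between -0.22 and 0.19.

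CFL1, cofilin 1, severs and depolymerises actin filaments and is the protein that LIM kinases inactivate by phosphorylation. It had the most negative difference among the tested members. Its brightest probe set read 22783 and 21026 after LPA, against 32647 and 32054 in untreated cells. The groups did not overlap, and the spread within each was small. The log2 difference was -0.56 ± 0.15 (95% interval -0.91 to -0.22), a level in LPA-treated cells of 0.677 times that in untreated cells, with a limma adjusted p = 0.9999.

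The difference of CFL1 was -0.52 within number 1 and -0.61 within number 2. Of 1684 tested genes with a mean signal of at least 4000, 3 had a lower difference within number 1, and 45 within number 2. Quantile normalization gave -0.42 and cyclic loess -0.42, and leaving out each array in turn gave -0.62 to -0.51. The second CFL1 probe set above the filter read 2183 and 1041 after LPA, against 2055 and 1520 in untreated cells. It was lower within number 2 only, with differences of 0.087 and -0.55, so the probe sets of this gene disagreed within number 1. Averaging all 4 CFL1 probe sets, 2 of them below the filter, gave -0.0083.

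PFN1, profilin 1, feeds monomers to growing filaments. It read 7203 and 6205 after LPA, against 6994 and 7184 in untreated cells, and the groups overlapped (log2 difference -0.084 ± 0.15).

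Tropomyosins lie along actin filaments and caldesmon stabilises them. The 4 tested members of this role had positive mean differences (51.9% of all genes did), and TPM2 and CALD1 had no overlap (14.4% of all genes were higher in that way). Both counts include TPM2, which passed the filter only through its LPA arrays. Without it, TPM1, TPM4 and CALD1 were positive and only CALD1 had no overlap. At probe sets specific to the gene, TPM1, TPM2 and TPM4 turned to -0.19, -0.99 and -0.046, and CALD1 stayed at 0.18. TPM2 read 133 and 156 after LPA, against 101 and 33.2 in untreated cells, a log2 difference of 1.29 ± 0.57. Untreated replicate 2 was the array apart, and it lay below the filter's signal of 70.5. The untreated mean, 5.89 on the log2 scale, was also below the filter, and the gene was tested only because its LPA mean was 7.18, so its difference is given as a description. The difference was 0.39 within number 1 and 2.19 within number 2, it was 0.50 without untreated replicate 2, and a pseudocount of 64 in place of 1 made it 0.72. The other 3 TPM2 probe sets were below the filter, and the brightest of them that is specific to the gene gave -0.99.

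CALD1, caldesmon, read 9389 and 8566 after LPA, against 8168 and 7622 in untreated cells. Both LPA arrays were higher, by similar amounts within each number (0.20 and 0.17), and the log2 difference was 0.18 ± 0.15 (adjusted p = 0.9999). Of its 8 probe sets above the filter, 6 were higher on average, 2 without overlap, and the range was -0.11 to 0.39. TPM1 read 3854 and 3434 after LPA, against 3539 and 3097 in untreated cells (0.14 ± 0.16), its 4 probe sets split evenly in sign, and leaving out 1 array gave 0.040 to 0.23. TPM4 differed by 0.15 ± 0.29 at its brightest probe set, which overlapped. Its other probe sets above the filter disagreed: one read 328 and 350.6 after LPA, against 250 and 175 in untreated cells, a difference of 0.70 without overlap, and the other differed by -0.046.

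In the calponin family, TAGLN (transgelin, also called SM22) is a classical SRF target of smooth muscle. It read 140 and 83.4 after LPA, against 89.0 and 128 in untreated cells. Its direction was opposite in the 2 replicate numbers (0.65 and -0.61), and the mean difference was 0.021 ± 0.45. TAGLN2, CNN2 and CNN3 differed by 0.093, 0.18 and -0.12, each with overlapping groups, and CNN2 ranged from 0.017 to 0.34 when 1 array was left out. CNN1, smooth muscle calponin, was below the filter, at 46.3 and 52.0 after LPA, against 4.10 and 52.0 in untreated cells. The regulatory light chain MYL9 was also below it, at 24.1 and 81.0 against 101 and 4.52, with wide spread within each group. The third, FILIP1L, lay just under the filter at 92.4 and 66.7 against 39.8 and 97.2, and PDLIM7, just above it, at 63.6 and 93.2 against 122 and 74.5 (-0.30 ± 0.48).

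Non-muscle myosin II heavy chains pull on actin filaments. MYH9 read 679 and 578 after LPA, against 907 and 573 in untreated cells, where untreated replicate 1 was the high array (-0.20 ± 0.27). MYH10 read 15811 and 12951 after LPA, against 16728 and 15090 in untreated cells (-0.15 ± 0.16), with -0.0070 without LPA replicate 2 and -0.29 without LPA replicate 1. It was lower in both numbers and at both probe sets above the filter, and the groups overlapped at the brighter.

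Among the crosslinkers, ACTN1, the non-muscle alpha-actinin that bundles filaments at adhesions, carries a CArG box in the stretch shown above. It read 5161 and 5310 after LPA, against 5015 and 4591 in untreated cells, a log2 difference of 0.13 ± 0.15 (adjusted p = 0.9999). Its other probe sets read 870 and 887 against 781 and 758, and 330 and 345 against 291 and 168. All 3 were without overlap, with differences of 0.13, 0.19 and 0.60. They measure the same RNA on the same arrays and are not replicates of each other. ACTN4 and LIMA1 differed by 0.077 and -0.017.

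LIM-domain proteins at filaments and adhesions differed by -0.30 to 0.20 at their brightest probe sets, and in all 6 the groups overlapped. FHL2, an SRF target and cofactor, read 1462 and 1560 after LPA, against 1150 and 1498 in untreated cells (0.20 ± 0.20), with 0.012 without untreated replicate 1 and 0.39 without untreated replicate 2. Zyxin (ZYX), which gathers at strained filaments, read 265 and 322 against 301 and 326 (-0.098 ± 0.28). TGFB1I1 (Hic-5), an adhesion adaptor, read 127 and 178 against 109 and 209, with the replicate numbers further apart than the groups.

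PDLIM5, a PDZ and LIM protein that binds alpha-actinin, was where the probe sets of a gene differed most. Its brightest probe set gave -0.10 ± 0.17 and the other 5 above the filter ranged from -0.48 to 1.12.

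At focal adhesions, vinculin (VCL), which links talin to actin and is an SRF target, read 7987 and 6761 after LPA, against 8042 and 7687 in untreated cells. LPA replicate 2 was again the low array, and the log2 difference was -0.098 ± 0.15, or -1.24 with all its probe sets averaged, dim ones included. Talin 1 (TLN1), which activates integrins, read 164 and 187 against 148 and 143, with no overlap (0.27 ± 0.35, adjusted p = 0.9999), but its second probe set gave 0.0078.

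FERMT2 (kindlin-2), talin's partner at integrins, read 3334 and 3273 after LPA, against 3766 and 3572 in untreated cells, a log2 difference of -0.15 ± 0.15 (adjusted p = 0.9999). All 3 of its probe sets were without overlap and lower, from -0.29 to -0.15. Paxillin (PXN), an adhesion scaffold, differed by -0.0090 ± 0.30.

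Across the 68 probe sets of the 30 members above the filter, 34 were higher and 34 lower on average after LPA. Of these, 10 (against 15.4% of all probe sets) had no overlap and were higher, and 9 (against 12.8%) were lower. The unadjusted p of the fit over probe sets was under 0.05 for 4 of the 68, against 2.05% of all probe sets, and 0 passed after adjustment, also with the replicate number as a block (0.119% of all probe sets). Of the 17 members with more than 1 such probe set, 7 (41.2%) had all of them in the same direction: MRTFA, ACTN1 and TLN1 higher, and ACTB, CFL1, FERMT2 and MYH10 lower. Of all 5789 genes with more than 1 such probe set, 42.0% did so, which is close to the members' share.

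**Figure D3:**
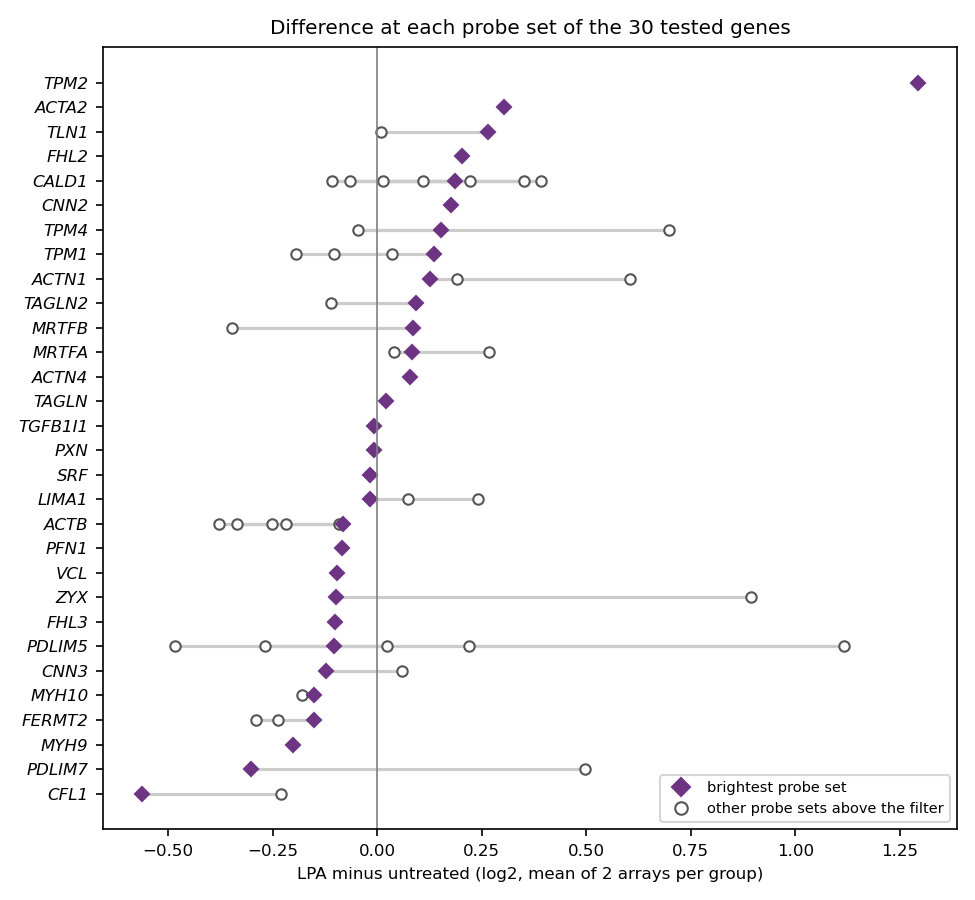
LPA minus untreated (log2, mean of 2 arrays per group) at every probe set above the filter for the 30 tested members, ordered by the brightest probe set (diamonds); open circles are the other probe sets. The probe sets of ACTN1, FERMT2 and CFL1 stay on their own side of 0, and those of PDLIM5 run from -0.48 to 1.12.

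The 2 replicate numbers did not give the same order of the members. Within number 1 the median difference was 0.035, with 18 of 30 members above 0, and within number 2 it was -0.014, with 14 above 0. In 8 members LPA was higher within both numbers (28.3% of all genes tested) and in 6 lower within both (25.2%). In 16 members (53.3%) the numbers had opposite signs, against 46.6% of all genes tested. Across the 30 members the correlation between the numbers was r = 0.093, and across all genes tested it was 0.055. These are descriptions across genes, which share their arrays.

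**Figure D4:**
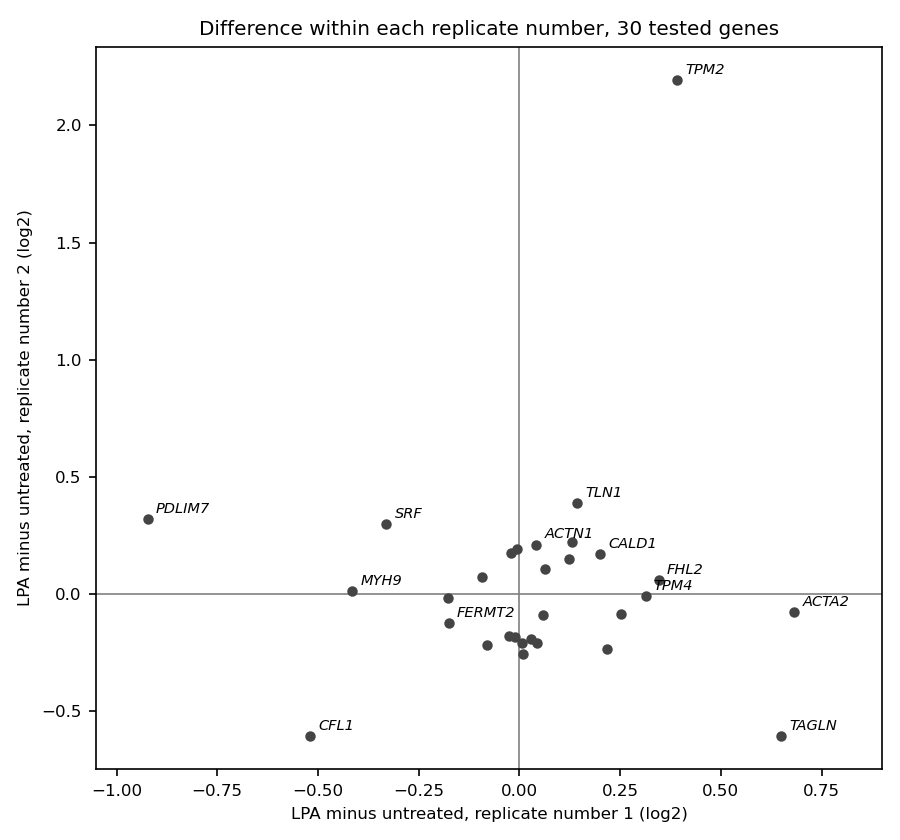
LPA minus untreated (log2) of the 30 tested members within replicate number 1 (horizontal) and number 2 (vertical), 1 point per gene. CFL1 is low in both, TPM2 is high chiefly in number 2 at 2.19, and TAGLN and SRF change sign between the numbers.

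Bright members were lower within number 2. The 8 members with a mean signal of at least 4000 (ACTB, ACTN1, CALD1, CFL1, CNN3, MYH10, PFN1 and VCL) had a median difference of -0.20 within number 2 and 0.018 within number 1. All 1684 tested genes as bright as that had -0.12 within number 2 and 0.0016 within number 1. Among genes of 16383 to 32767 units, the range of ACTB and CFL1, the median within number 2 was -0.24. ACTB, at -0.19, lay near it, CFL1, at -0.61, lay 0.37 below it, and within number 1 CFL1 lay 0.52 below the median of such genes. The opposite held for ACTN1 and CALD1, which were higher within number 2 by 0.21 and 0.17, where genes of their brightness had medians of -0.062 and -0.13. Among genes of 255 to 511 units the median within number 2 was 0.12. Of the members in that range, ACTN4 (0.17), CNN2 (0.22) and SRF (0.30) lay above it, and ACTA2, PXN, TPM4 and ZYX below it. The limit of 4000 was chosen after these values were seen.

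**Figure D5:**
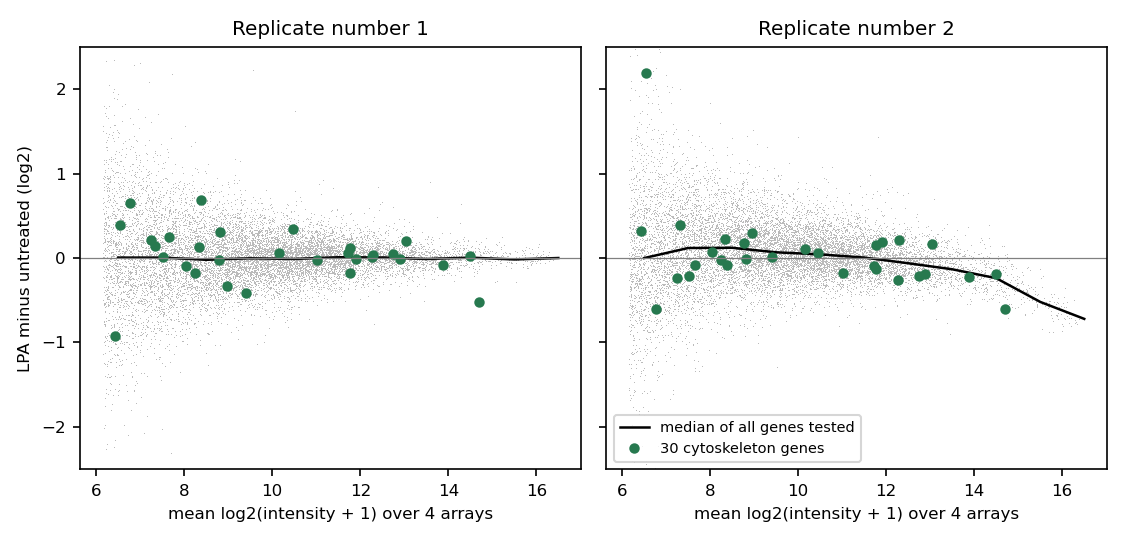
LPA minus untreated (log2) against mean log2(intensity + 1) over the 4 arrays, within replicate number 1 (left) and number 2 (right); grey dots are genes tested, the line is their median in steps of 1 log2 unit, and green points are the 30 cytoskeleton genes. The median stays near 0 in number 1. In number 2 it is highest, at 0.12, among genes of 255 to 511 units and falls with each brighter step. It is below 0 from 4095 units up, at -0.72 among the 25 genes above 65535 units. Dots beyond 2.5 are not drawn.

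Set against the promoter search, the 6 tested members with a CArG box in their window had a median difference of 0.14, from -0.017 for SRF to 0.20 for FHL2. The 22 tested members with a window and no box had a median of -0.051. Over all genes tested, the medians were 0.020 for the 163 with a box and 0.0073 for the 9562 without. The gap between the untreated arrays was larger than the LPA difference in all 6 members with a box and in 13 of the 22 without, against 67.4% of all genes. Of the 6, ACTN1 was higher without overlap, against 14.4% of all genes.

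The rest of the pathway was read from lists of other genes. In each list 0 genes passed limma's test over all genes. The unadjusted limma p was under 0.05 for 1 gene, FOS, and for 1.74% of all genes tested. Genes of a list were named by smallest p, which favours groups without overlap. Of 6 partners of SRF, 4 were tested, with a median of 0.22. ELK4, a ternary complex factor that joins SRF at early genes, read 881 and 908 after LPA, against 742 and 747 in untreated cells (0.26 ± 0.20), with no overlap. SCAI, which represses MRTF activity, differed by 0.17 without overlap and ELK3 by 0.26 with overlap. Of the 4 tested, 2 were higher without overlap and 0 lower, against 14.4% and 12.5% of all genes.

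Of 26 genes of monomer binding and filament turnover, 23 were tested, 12 above and 11 below 0 with a median of 0.0091. The monomer-binding thymosin TMSB10 read 30492 and 23440 against 31516 and 35291 (-0.32 ± 0.18), and ARPC4, a subunit of the branching complex, 766 and 648 against 974 and 785 (-0.31 ± 0.22). Within numbers 1 and 2 TMSB10 differed by -0.048 and -0.59, where genes of its brightness had medians of 0.0050 and -0.24. ARPC4 differed by -0.35 and -0.28. The filament elongation factor ENAH differed by 0.18 ± 0.15 and the branching complex subunit ARPC1A by -0.16 ± 0.15. These 4 genes had the smallest p of the list. In the whole list 2 of 23 were higher without overlap and 4 lower, against 14.4% and 12.5% of all genes.

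Of 14 other focal adhesion genes, 11 were tested, with a median of 0.052. ILK, the integrin-linked pseudokinase, read 354 and 238 against 436 and 437 (-0.59 ± 0.30), and its binding partner PARVA 147 and 163 against 233 and 174 (-0.38 ± 0.35), both without overlap. BCAR1, an adhesion scaffold, was higher at 206 and 252 against 187 and 163 (0.38 ± 0.33), without overlap, and TLN2, the second talin, differed by 0.41 ± 0.59 with overlap. Of the 11 tested, 1 was higher without overlap and 2 lower, against 14.4% and 12.5% of all genes.

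Of 6 early SRF targets outside the cytoskeleton, 5 were tested, 3 above and 2 below 0 with a median of 0.45. The transcription factor gene FOS read 389 and 323 after LPA, against 131 and 271 in untreated cells (0.90 ± 0.39, limma adjusted p = 0.9999), and the matrix protein gene CCN1 271 and 344 against 204 and 245 (0.45 ± 0.31). Both were without overlap, while EGR1 (0.50 ± 0.43) and CCN2 (-0.54 ± 0.52) overlapped. In 3 of the 5 (FOS, CCN1 and EGR1) LPA was higher within both replicate numbers, against 28.3% of all genes tested. Within numbers 1 and 2 EGR1 differed by 0.71 and 0.29, and CCN2 by -1.26 and 0.17. Of the 5 tested, 2 were higher without overlap and 0 lower, against 14.4% and 12.5% of all genes. CCN2, 1 of the 2 below 0, passed the filter only through its untreated arrays. Its log2 mean was 6.45 there and 5.91 after LPA, where the filter was 6.16, so its difference is given as a description.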

How the data were processed

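RNA of 4 samples was measured on 1-colour Affymetrix arrays. The deposited intensity values, 1 per probe set on a linear scale, came from MAS5, per the submitters' processing notes, and no software version or detection call was used here. Probe sets were named from the platform annotation (41097 of 54675 with 1 symbol, 1801 with several, 11777 with none). Each gene was taken at its brightest probe set, and the dimmest genes were dropped (mean log2 intensity under the 40th percentile, or 70.5 units). The 2 groups were compared on log2(intensity + 1) with limma 3.58.1 in R 4.3.3 (intensity trend, two-sided, Benjamini-Hochberg over 11865 genes, threshold 0.05). The fit was also run on simulated data with independent errors of the same SD for all genes. That setting is simpler than these arrays, so the run does not show how the fit performs on them. SE is limma's moderated value. Precision is limited by having 2 arrays per group, with a median SE of 0.244 over genes. Every member could be named; other lists gave up to 4 genes by smallest p. The members and lists were chosen with earlier results of these data known. Alternatives covered normalization, filter, pseudocount, probe set, trend, replicate block and leaving out each array. One list of signalling genes is not reported here.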

Additional observations from a re-analysis of the deposited data

Results flagged for a closer look

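A probe set of PDLIM5 that was not the brightest of its gene read 221 and 242 after LPA, against 98.7 and 114 in untreated cells. It was looked at because this signal lies outside the comparison by brightest probe set and was above the untreated level on both LPA arrays. The log2 difference was 1.12 ± 0.34 (SE), with 1.16 within replicate number 1 and 1.08 within number 2. In a limma fit with each of 21817 probe sets as a feature, chosen after seeing the data, the limma adjusted p = 0.99999, and 0 probe sets passed (448 had an unadjusted p under 0.05). The other PDLIM5 probe sets above the filter differed by -0.48 to 0.22.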

How the results depend on the processing

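No member passed the threshold under any alternative; the lowest limma adjusted p of a member was 0.0524, for CFL1 with the replicate block and quantile normalization (0.313 with the block alone). The block was an alternative because the labels do not say what a number marks. With it, 32 genes of the whole table passed the threshold, or 4 with quantile normalization, against 0 without it. Deviations of same-numbered arrays correlated at r = 0.33 over all genes tested. Leaving out 1 array gave 0 to 3 such genes. The members' median was -0.028 to 0.045 when 1 array was left out (0.045 without untreated replicate 2), 0.035 within replicate number 1 (values within numbers were also added after seeing the data), and within 0.034, the SD over the numbers, of the main value elsewhere. The members without overlap and higher numbered 6 with median centring, 2 with a 60th percentile filter, 2 with all probe sets averaged, 10 with every probe set as a feature (added after seeing the data), and 7 to 12 with 1 array left out, which relaxes the rule. Those lower numbered 1 with median centring, 6 with all probe sets averaged, 9 with every probe set as a feature, and 5 to 10 with 1 array left out. With all probe sets averaged, dim ones included, signs turned for ACTA2 (-0.25), LIMA1 (0.099), PXN (0.087), SRF (0.20), TAGLN2 (-0.0094), TPM1 (-0.029), TPM2 (-0.33), TPM4 (-0.41) and ZYX (0.40). With gene-specific probe sets they turned for PDLIM7 (0.46), TPM1 (-0.19), TPM2 (-0.99) and TPM4 (-0.046). Quantile normalization turned ACTB (0.048) and TAGLN (-0.0042), as it did with the block, and cyclic loess the same genes (0.049 and -0.015). Median centring turned LIMA1 (0.016), PXN (0.024), SRF (0.016) and TGFB1I1 (0.025). Leaving out 1 array took the difference from -0.051 to 0.66 for ACTA2, -0.22 to 0.057 for ACTB, -0.12 to 0.28 for ACTN4, -0.32 to 0.068 for CNN3, -0.44 to 0.23 for FHL3, -0.19 to 0.16 for LIMA1, -0.12 to 0.28 for MRTFA, -0.13 to 0.30 for MRTFB, -0.53 to 0.13 for MYH9, -0.65 to 0.047 for PDLIM7, -0.19 to 0.023 for PFN1, -0.18 to 0.16 for PXN, -0.52 to 0.49 for SRF, -0.35 to 0.39 for TAGLN, -0.098 to 0.28 for TAGLN2, -0.47 to 0.46 for TGFB1I1, -0.16 to 0.46 for TPM4, -0.22 to 0.023 for VCL and -0.24 to 0.040 for ZYX. In all, 419 of the member values under alternatives kept their sign and side of the threshold and 50 turned, over 21 members; the cause was not tested. Values near the filter carry the widest errors, and without detection calls none is shown to be above background.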
